A study of Homo sapiens with 12 samples.

Results

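The genes described here are 42 human genes whose products license replication origins and run the replication fork. They were taken by name from a fixed list of 42 members, out of 20007 protein-coding genes of the annotation. No measured value enters the rule, but the list was drawn up with earlier results of these data known. For each gene, regions of H2A.Z and of acetylated H2A.Z (H2A.Zac) were collected over the annotated gene body plus 2 kb to each side, and separately over a window of 1 kb to each side of the transcription start site (TSS) of the canonical transcript. Of the 158028 regions in the authors' deposited lists, 242 lay in the loci of the 42 genes and 175 in their TSS windows. Of the 42 genes, 41 had listed regions of both marks in the TSS window, and RPA3 had none there.

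The study compared lines made from K562, a human cell line of chronic myeloid leukemia, that carried either WT EP400 or EP400 without its TRRAP-binding SANT and HD domains (ΔTRRAP). In both lines the endogenous EP400 carried a degradation tag (dTAG) on its C terminus, the exogenous EP400 was expressed from the AAVS1 locus, and the cells received 500 nM dTAGV-1 for 24 h before ChIP. Each line was 1 clone, so the deletion and any other difference between the 2 clones cannot be told apart. The 12 libraries form 6 groups of 2 replicates, each line having input, an H2A.Z ChIP and an H2A.Zac ChIP. The authors merged the replicates and gave each region 1 value, the log10 likelihood ratio of a difference between the lines, called the ratio below. Regions with a ratio of at least 3 were listed as higher in WT, here called lost, or as higher in ΔTRRAP, here called gained, and the rest were listed as unchanged. The ratio measures the evidence for a difference and is not a fold change. No read count or value per replicate was at hand, so the depth is unknown, no spread between replicates can be given, and no test was run. Intervals beside shares of genes are Wilson 95% confidence intervals and describe counting error alone.

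A replication origin is licensed when the origin recognition complex (ORC), CDC6 and CDT1 load the MCM2-7 helicase on DNA in G1 phase, and geminin (GMNN) blocks CDT1 once S phase has begun. The kinase CDC7-DBF4 and other firing factors then turn MCM2-7 into the active CDC45-MCM-GINS helicase, behind which primase, the replicative polymerases, the PCNA clamp and its loader RFC, FEN1, LIG1 and the single-strand binding complex RPA copy both strands. Many of these genes are transcribed in a cell cycle-dependent way under E2F transcription factors. H2A.Z is a histone variant placed in the nucleosomes beside active promoters, and the EP400 (TIP60) complex both exchanges it into nucleosomes and acetylates it.

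The promoters of 6 genes are shown because their TSS windows held the highest ratios among the genes described in full, apart from GINS4, which is not shown. Each runs from 150 bases before the TSS through the first 30 transcribed bases, in the direction of transcription. Capitals mark letters that match the searched motifs of E2F, of CCAAT and of NRF1, defined after the sequences. Sequences and positions are from RefSeq on GRCh38.p14. They lie at chr6:24774787-24774966, plus strand, for GMNN, at chr2:148020708-148020887, minus strand, for ORC4, at chr19:48170315-48170494, minus strand, for LIG1, at chr6:118935130-118935309, minus strand, for MCM9, at chr17:1829855-1830034, plus strand, for RPA1 and at chr16:88803639-88803818, plus strand, for CDT1.
GMNN: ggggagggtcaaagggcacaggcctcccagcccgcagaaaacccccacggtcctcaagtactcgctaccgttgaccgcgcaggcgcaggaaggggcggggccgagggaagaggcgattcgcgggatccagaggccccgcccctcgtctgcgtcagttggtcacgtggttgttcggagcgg
ORC4: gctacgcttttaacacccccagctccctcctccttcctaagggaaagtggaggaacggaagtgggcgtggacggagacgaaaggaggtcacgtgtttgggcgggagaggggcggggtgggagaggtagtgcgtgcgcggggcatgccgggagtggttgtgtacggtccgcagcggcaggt
LIG1: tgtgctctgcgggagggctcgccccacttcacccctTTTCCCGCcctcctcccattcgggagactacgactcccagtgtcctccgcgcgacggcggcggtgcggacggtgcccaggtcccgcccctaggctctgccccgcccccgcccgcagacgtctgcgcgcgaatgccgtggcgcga
MCM9: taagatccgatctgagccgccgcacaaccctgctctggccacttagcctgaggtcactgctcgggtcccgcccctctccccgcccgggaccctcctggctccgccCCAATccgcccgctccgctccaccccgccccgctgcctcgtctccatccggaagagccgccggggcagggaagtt
RPA1: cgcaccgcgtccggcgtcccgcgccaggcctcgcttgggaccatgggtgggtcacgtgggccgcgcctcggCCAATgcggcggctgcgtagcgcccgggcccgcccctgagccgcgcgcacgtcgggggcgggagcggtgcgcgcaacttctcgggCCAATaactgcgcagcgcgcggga
CDT1: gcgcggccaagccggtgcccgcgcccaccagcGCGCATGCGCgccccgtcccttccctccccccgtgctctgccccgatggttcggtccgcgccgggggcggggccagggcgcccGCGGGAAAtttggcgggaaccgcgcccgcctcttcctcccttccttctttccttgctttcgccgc

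The letters searched were TTTCGCGC, TTTGGCGC, TTTCCCGC and TTTGCCGC for E2F, CCAAT for the CCAAT box, TTTGAA for the cell cycle homology region (CHR) and GCGCATGC for NRF1, each on both strands, in RefSeq promoters that run from 250 bases before to 50 bases after the TSS. Promoters were at hand for 37 of the 42 genes, and RPA2, MCM4, MCM5, RPA3 and GINS4 had no entry. An E2F match was found in 16 of the 37 promoters (43.2%), beside 693 of 14942 promoters of all protein-coding genes (4.64%). CCAAT was found in 20 (54.1%, beside 36.8% of all), the CHR letters in 1, that of DBF4 (2.70%, beside 11.5%), and the NRF1 letters in 3, those of ORC6, CDT1 and POLA2 (8.11%, beside 4.44%). The 180-base stretches of GMNN and ORC4 held none of these letters. The median GC content of the 37 promoters was 63.3%, beside 64.0% for all. The E2F letters were found in 7 of the 18 promoters (38.9%) whose window held a gained H2A.Z region and in 9 of the 19 (47.4%) whose window held none. For gained H2A.Zac the values were 9 of 20 (45.0%) and 7 of 17 (41.2%). Over all protein-coding genes the shares with and without a gained region were 6.19 and 5.71% for H2A.Z, and 6.22 and 5.31% for H2A.Zac. Among the other replication genes, described below, they were 3 of 12 and 5 of 18 for H2A.Z, and 2 of 18 and 6 of 11 for H2A.Zac. A match is a description of the letters and was not shown to be bound.

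For the licensing and MCM2-7 genes with an E2F match, 30 bases around the match farthest upstream are shown, since the genes below are compared with and without a gained mark. These windows were chosen after the values were seen. Matches outside the printed windows start 4 bases before the TSS in MCM3, 9 bases before it in MCM7, and 90 and 86 bases before it, overlapping, in MCM6. Capitals mark the E2F letters in either orientation, overlapping matches are run together, and distances are from the TSS to the first capital, at 12 bases before it for ORC3, 7 after it for CDC6, 35 before it for CDT1, 2 after it for MCM2, 174 before it for MCM3, 152 before it for MCM6 and 187 before it for MCM7. The windows lie on GRCh38.p14 at chr6:87590112-87590141 (ORC3, plus strand), chr17:40287875-40287904 (CDC6, plus strand), chr16:88803743-88803772 (CDT1, plus strand), chr3:127598402-127598431 (MCM2, plus strand), chr6:52284898-52284927 (MCM3, minus strand), chr2:135876577-135876606 (MCM6, minus strand) and chr7:100101566-100101595 (MCM7, minus strand).
ORC3: cgcgagggcgcGCGGGAAAtcccgagtgca
CDC6: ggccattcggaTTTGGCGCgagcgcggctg
CDT1: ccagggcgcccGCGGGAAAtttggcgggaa
MCM2: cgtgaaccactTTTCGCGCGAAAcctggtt
MCM3: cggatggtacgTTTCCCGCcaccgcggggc
MCM6: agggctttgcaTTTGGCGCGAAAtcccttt
MCM7: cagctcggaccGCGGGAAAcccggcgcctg
Of these 7 genes, CDT1, MCM3, MCM6 and MCM7 had a gained H2A.Z region in the TSS window (background 22.3%). ORC3, CDC6 and MCM2 had unchanged H2A.Z only. The split differed for H2A.Zac, which was gained at CDC6, CDT1, MCM6 and MCM7 (background 57.3%). MCM6 also lost H2A.Zac, and ORC3, MCM2 and MCM3 had unchanged H2A.Zac only.

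In the TSS windows, gained H2A.Z was listed at 20 of the 41 genes (48.8%, Wilson 95% confidence interval, 34.3 to 63.5%), beside a background of 22.3% of the 12457 protein-coding genes with a listed H2A.Z region there. Lost H2A.Z was listed at 1 of the 41 genes, GINS4 (2.44%, 0.432 to 12.6%), beside a background of 10.5%. Gained H2A.Zac was listed at 22 of the 41 genes (53.7%, 38.7 to 67.9%), close to the background of 57.3%. Lost H2A.Zac was listed at 4 of the 41 genes, MCM6, PRIM2, GINS4 and RFC4 (9.76%, 3.86 to 22.5%), beside a background of 26.0%. Among genes with a listed region, gained H2A.Zac was thus about as frequent at these promoters as elsewhere, the share with gained H2A.Z was above that of all genes, and both shares with a loss were below, although for lost H2A.Z the interval included the background. The lost H2A.Zac share was 11.1% without chromosomes 19 and 20 (4 of 36 genes, beside 24.4%) and 14.8% without promoters shared with another gene (4 of 27, beside 29.2%). The intervals of these smaller sets are wider and were not computed, so whether they include the background is not given. With all genes in the denominator, listed or not, gained H2A.Zac was at 52.4% of the 42 genes beside 36.7% of all 20007, gained H2A.Z at 47.6% beside 13.9%, lost H2A.Z at 2.38% beside 6.54%, and lost H2A.Zac at 9.52% beside 16.7%, within the interval of its share. The comparisons for gained and lost H2A.Zac therefore depend on whether genes without a listed region are counted. The background holds genes of every expression level and the 2 clones were compared without a spread between replicates, so these shares are descriptions. Requiring a ratio of at least 10 left 0 of the genes with gained H2A.Z in the TSS window, beside 1.03% of all genes.

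**Figure D1:**
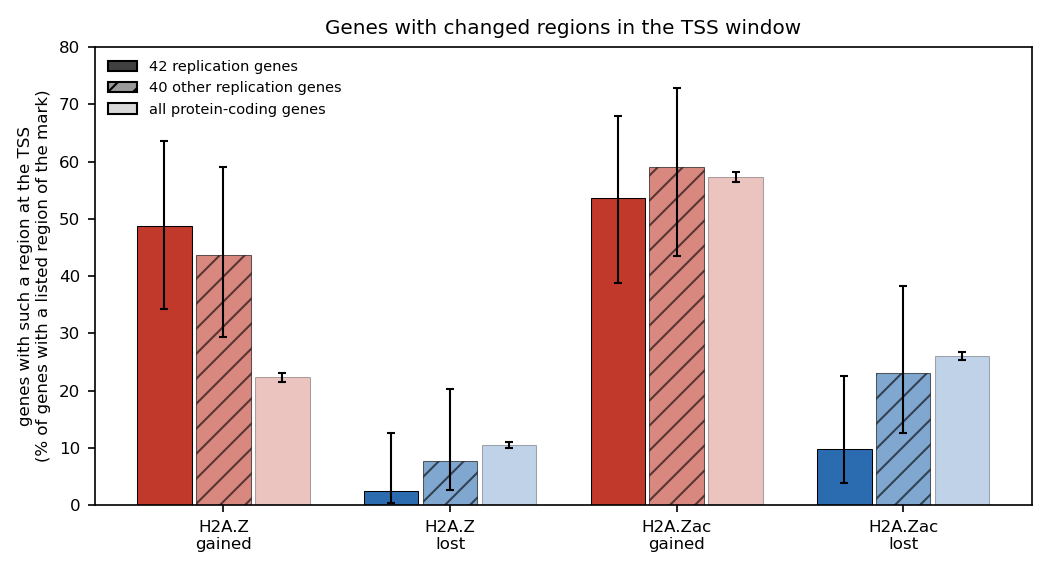
Share of genes, in percent of genes with a listed region of the mark, whose TSS window held at least 1 gained (red) or lost (blue) region of H2A.Z or H2A.Zac, for the 42 replication genes, 40 other replication genes and all protein-coding genes. Error bars are Wilson 95% intervals of counting error. The dark bar for gained H2A.Z stands at 48.8% beside 22.3% for all protein-coding genes, while the bars for gained H2A.Zac stand at 53.7 and 57.3%.

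Counted by region, the TSS windows held 86 H2A.Z regions, of which 26 were gained, 1 was lost and 59 were unchanged, and 89 H2A.Zac regions, of which 29 were gained, 4 were lost and 56 were unchanged. Gained regions made up 96.3% (81.7 to 99.3%) of the changed H2A.Z regions, beside 67.8% in the TSS windows of all protein-coding genes, and 87.9% (72.7 to 95.2%) of the changed H2A.Zac regions, beside 69.6%. The ratios were modest and close to those of other promoters. The gained H2A.Z regions had ratios of 3.15 to 8.12 with a median of 5.33, beside a median of 4.99 for all protein-coding genes, and the gained H2A.Zac regions had ratios of 3.76 to 20.7 with a median of 5.75, beside 6.02. Of the 29 gained H2A.Zac regions, 3 reached a ratio of 10 (10.3%, beside 12.6% over all protein-coding genes), those of GMNN, ORC4 and LIG1. Several regions can come from 1 peak, since changed and unchanged stretches of it are listed separately. Of the 26 gained H2A.Z regions 11 overlapped an unchanged H2A.Z region (42.3%), beside 46.1% of gained H2A.Z regions over the genome. Of the 29 gained H2A.Zac regions 20 overlapped an unchanged H2A.Zac region (69.0%), beside 55.7% over the genome. The genome shares include regions outside TSS windows, and the shares in the TSS windows of all genes are not given. Counting gained H2A.Zac regions that merely touched an unchanged one as well gave 26 of 29, with no genome value to set beside it.

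The gained regions lay beside the TSS more often than on it. Of the gained H2A.Z regions 4 spanned the TSS base, 6 lay upstream and 16 downstream, and of the gained H2A.Zac regions 3 spanned it, 11 lay upstream and 15 downstream. Over all protein-coding genes, 1215 of 3356 gained H2A.Z regions lay upstream and 1498 downstream. For gained H2A.Zac the counts were 2607 and 3147 of 9263. The share spanning the TSS was thus 15.4% for gained H2A.Z, beside 19.2% over all protein-coding genes, and 10.3% for gained H2A.Zac, beside 37.9%. Unchanged H2A.Zac covered the TSS base itself in 39 of the 41 genes (95.1%, beside 64.3% of all), and the only exceptions were ORC2 and CDT1, where a gained H2A.Zac region covered it. Unchanged H2A.Z covered the TSS base in 23 of the 41 genes (56.1%, beside 66.5%). Along the window, gained H2A.Z was most frequent 350 bp downstream, at 9 of the 41 genes, and on the upstream side 475 bp away, at 6 of them (14.6%), beside maxima of 8.57% downstream and 7.31% upstream over all genes. Gained H2A.Zac was most frequent 825 bp downstream, at 13 of the 41 genes (31.7%), while over all genes its maximum of 33.6% lay 325 bp downstream. On the upstream side the maxima were alike, at 26.8% of the 41 genes and 26.2% of all. At the TSS base gained H2A.Zac covered 7.32% of the 41 genes, beside 27.4% of all protein-coding genes.

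**Figure D2:**
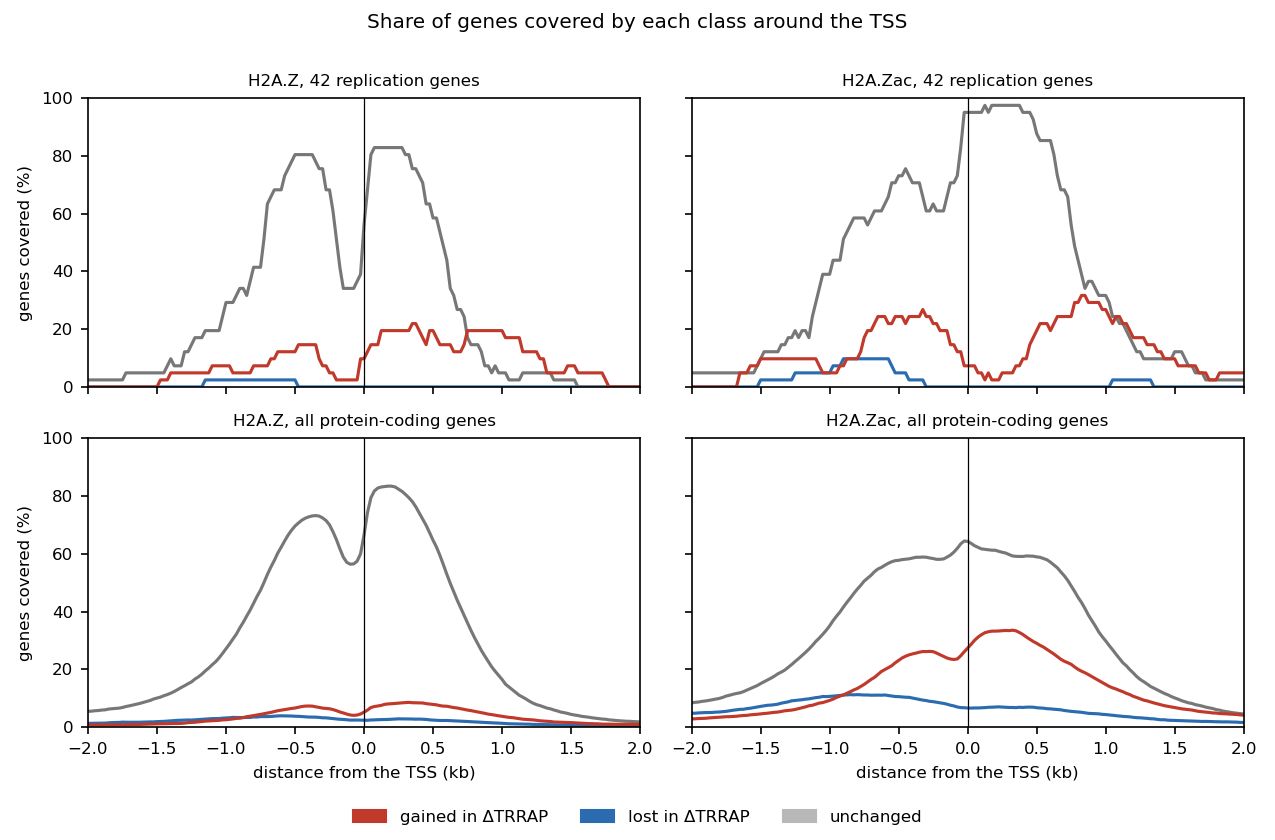
Share of genes (percent, of those with a listed region of the mark in the TSS window) covered by gained (red), lost (blue) and unchanged (grey) regions at each distance from the TSS, in kb in the direction of transcription, for H2A.Z (left) and H2A.Zac (right) at the 42 replication genes (top) and at all protein-coding genes (bottom). At the replication genes unchanged H2A.Zac covers 95.1% of TSSs, and the red H2A.Zac line falls to 7.32% at the TSS between its flanking maxima, where it stays at 27.4% for all genes.

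Both marks were gained in the TSS window of 13 genes, ORC2, ORC6, CDT1, GMNN, MCM5, MCM7, MCM9, POLA2, RFC2, RFC3, FEN1, LIG1 and RPA1 (31.7% of the 41 with both marks listed, beside 16.5% of the 11908 such protein-coding genes). H2A.Z was gained beside unchanged H2A.Zac at 5 genes, MCM3, MCM4, CDC7, PRIM1 and PCNA, a pairing found at 314 protein-coding genes (12.2%, beside 2.64%). H2A.Zac was gained over unchanged H2A.Z at 8 genes, ORC1, ORC4, ORC5, CDC6, TOPBP1, POLE, RFC1 and RPA2 (19.5%, beside 33.7%). Both marks were unchanged at 11 genes, ORC3, MCM2, MCM8, MCM10, DBF4, CDC45, GINS1, GINS2, GINS3, POLD1 and RFC5 (26.8%, beside 20.2%). Counting genes without a listed region as well, the shares over the 42 genes and over all 20007 were 31.0 and 9.81%, 11.9 and 1.57%, 19% and 20.1%, and 26.2 and 12.0%, in the same order. Of the rest, MCM6 gained H2A.Z and both gained and lost H2A.Zac, PRIM2 gained H2A.Z and lost H2A.Zac, RFC4 lost H2A.Zac alone, GINS4 lost both marks and RPA3 had no region. These classes depend on the window. The gained H2A.Z region of MCM4 had 35 bp in it. With the TSSs of all annotated transcripts, MCM4, PCNA, CDC45 and GINS1 turned from unchanged to gained H2A.Zac. Of the 29 gained H2A.Zac regions, 12 overlapped a gained and 16 an unchanged H2A.Z region, and 3 overlapped none, with 1 region able to overlap several. Both marks came from the same 2 clones, and one mark is no repeat of the other.

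**Figure D3:**
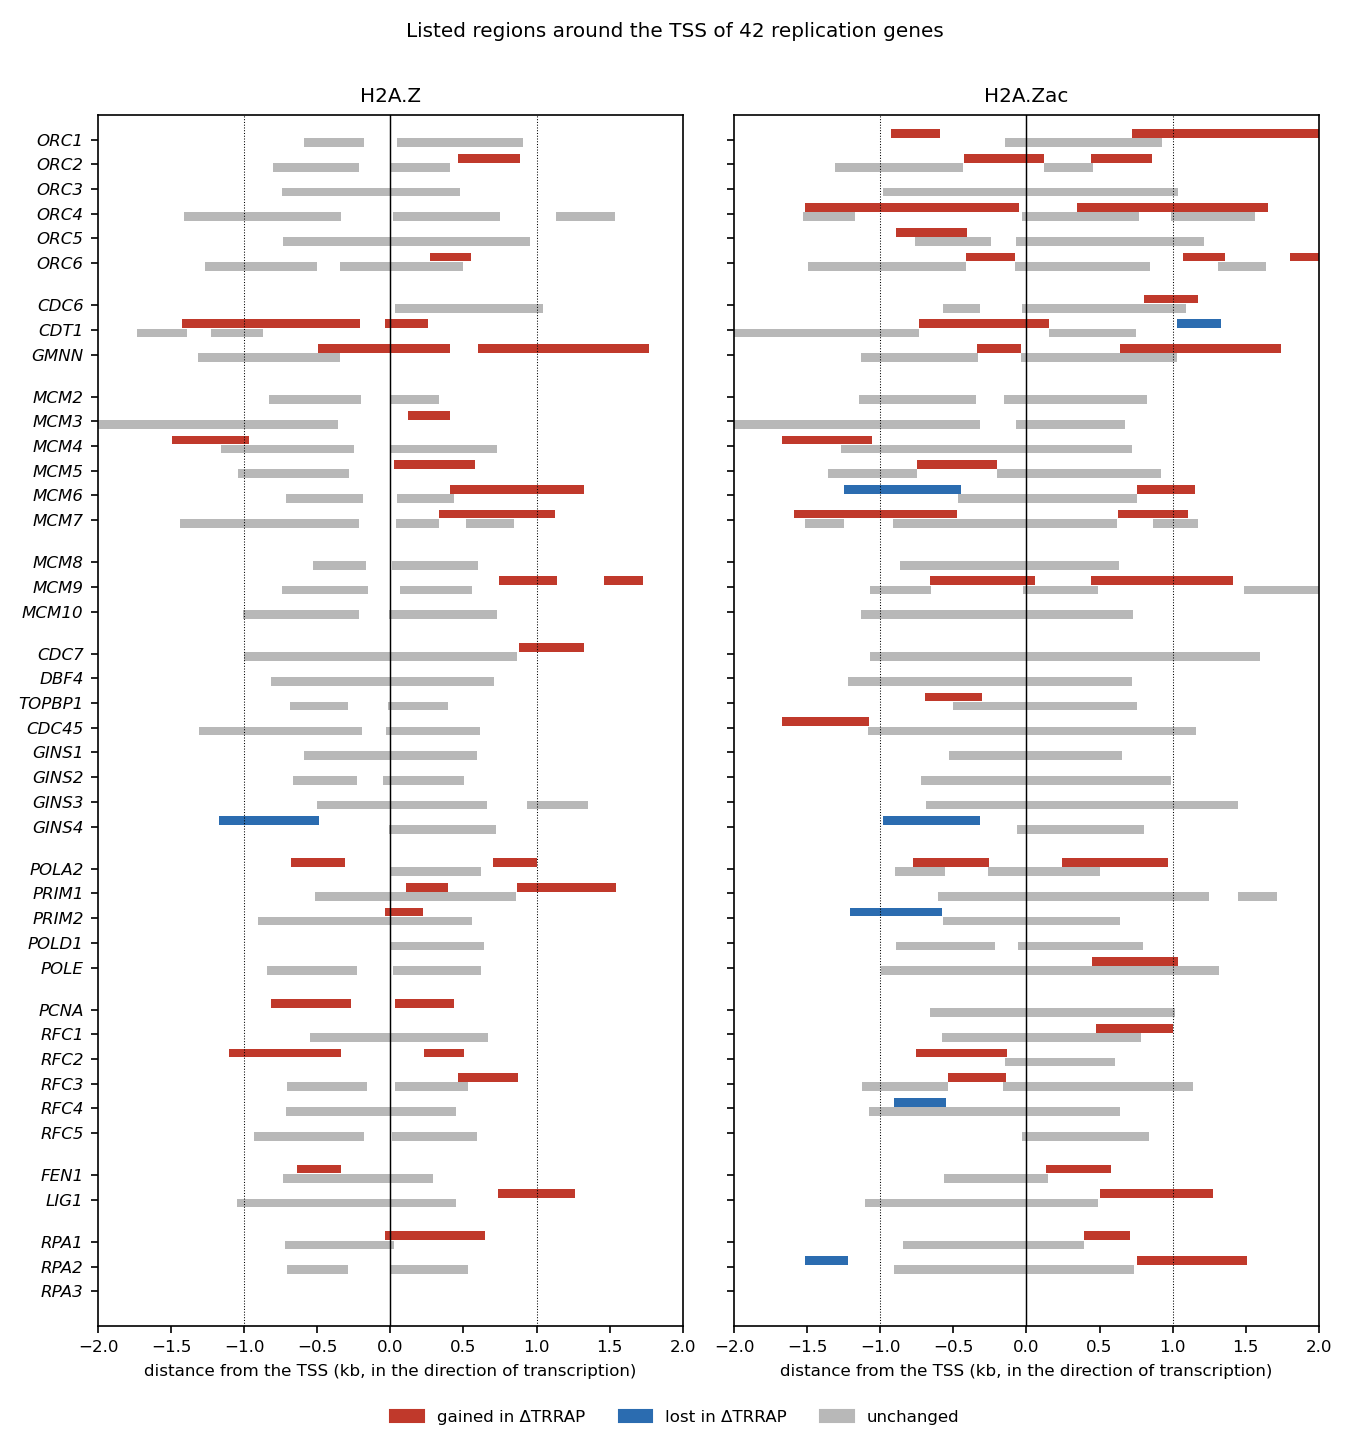
Position of every listed H2A.Z (left) and H2A.Zac (right) region around the TSS of each of the 42 genes, in kb in the direction of transcription, with gained regions in red, lost in blue and unchanged in grey. Genes are grouped by role, the solid line is the TSS and the dotted lines bound the window of 1 kb to each side. Within the window, red bars are present at 20 genes for H2A.Z and at 22 for H2A.Zac, and RPA3 has no bar.

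The origin recognition complex is the multisubunit platform, encoded by ORC1 to ORC6, that marks each origin. Of its 6 genes, 5 gained H2A.Zac in the TSS window (background 57.3%) and 2, ORC2 and ORC6, gained H2A.Z (background 22.3%). The counts for this and the following roles rest on 2 to 8 genes each and are given as descriptions. ORC4 had one of the highest gained H2A.Zac ratios, 19.2, at chr2:148020785-148022254, which lies 48 to 1517 bp upstream of the TSS on the side of the divergent gene MBD5. Another gained H2A.Zac region of ORC4, at a ratio of 4.25, began 345 bp into the gene. Both H2A.Z regions in the ORC4 window were unchanged, at 0.23 and 1.07. ORC2 gained H2A.Z at chr2:200962774-200963199 with a ratio of 8.12, the highest of any gained H2A.Z region in the TSS windows, and almost the same intronic stretch, chr2:200962804-200963217, gained H2A.Zac at 6.84. A further ORC2 H2A.Zac region, at 5.01, spanned the TSS and exon 1. ORC1 gained H2A.Zac in a broad region over exon 2, chr1:52401940-52403700, at 8.53 and upstream at 5.75. ORC6 gained H2A.Z at 3.45 in its first intron and H2A.Zac at 5.41 upstream, and ORC5 gained H2A.Zac upstream at 3.76, the lowest of the gained H2A.Zac ratios. The single regions of both marks at ORC3, at 0.69 for H2A.Z and 0.29 for H2A.Zac, were unchanged.

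At the licensing factors and their inhibitor, all changed regions of the TSS windows were gains, beside 67.8% of H2A.Z and 69.6% of H2A.Zac changes over all genes. H2A.Zac was gained in the TSS windows of CDC6, CDT1 and GMNN (background 57.3%), and H2A.Z was gained at CDT1 and GMNN (background 22.3%). GMNN had the highest gained H2A.Zac ratio of the 42 TSS windows, 20.7, in a narrow region of 305 bp at chr6:24774599-24774903, 34 to 338 bp upstream of the TSS. With regions of at least 500 bp only, the highest GMNN ratio was 6.98, below that of ORC4. A gained H2A.Z region at chr6:24774444-24775345, with a ratio of 5.67, enclosed it and ran over exon 1. Farther in, at chr6:24775537-24776707 and chr6:24775578-24776676, nearly the same intronic stretch gained H2A.Z at 5.43 and H2A.Zac at 6.98. Gained H2A.Z covered 1303 bp of the GMNN window of 2 kb, the most of the 42 genes. CDT1 gained H2A.Z at chr16:88802365-88803578, upstream, at 7.51 and over the TSS and exon 1 at chr16:88803753-88804048 at 5.96, while H2A.Zac was gained across the TSS at chr16:88803054-88803941 at 8.46. The printed E2F and NRF1 letters of CDT1 fall within the gained H2A.Zac region. Just beyond the window, over exon 3 at chr16:88804817-88805121, CDT1 lost H2A.Zac at 5.38. CDC6 gained H2A.Zac at 5.14 in its first intron, 805 to 1175 bp from the TSS, over unchanged H2A.Z.

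Among the subunits of the MCM2-7 helicase, 5 of 6 genes gained H2A.Z in the TSS window (background 22.3%), 3 gained H2A.Zac (57.3%) and 1 lost it (26.0%). MCM6 showed both directions of H2A.Zac around the same TSS. It gained H2A.Zac at 6.67 at chr2:135875288-135875685, in its first intron, inside a gained H2A.Z region of ratio 6.36 at chr2:135875119-135876035. Upstream of the MCM6 TSS, at chr2:135876888-135877695, H2A.Zac was lost at 4.92, while H2A.Z there was unchanged at 0.36. MCM7 gained H2A.Z at 4.25 at chr7:100100268-100101066, and H2A.Zac at 4.81 within it and at 4.29 upstream, at chr7:100101870-100102988, toward the divergent gene AP4M1. In MCM5, gained H2A.Z over exons 1 and 2 at chr22:35400164-35400721 had a ratio of 4.87, and gained H2A.Zac at chr22:35399389-35399936 lay upstream at 7.32. MCM3 gained only H2A.Z, at 5.52, over exon 1. MCM4 gained H2A.Z at 6.39 at chr8:47959449-47959975, of which 35 bp reached into its window from the side of the neighboring PRKDC promoter, so that this call was lost when 25% of a region had to lie in the window. MCM2 had unchanged regions only, with ratios of 0.50 to 1.05.

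Of the MCM relatives outside the helicase, MCM8 and MCM9, which act in recombination, and MCM10, which helps start the fork, only MCM9 changed at its TSS. MCM9 gained H2A.Zac at chr6:118933747-118934715 in its first intron, with a ratio of 9.20, and across the TSS and exon 1 at chr6:118935100-118935819, at 7.44. Within the former region, H2A.Z was gained at 4.95 at chr6:118934017-118934416. The unchanged regions of MCM8 and MCM10 had ratios of at most 1.20.

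At the firing factors and the CMG helicase subunits, 6 of 8 windows were unchanged for H2A.Z, near the 67.8% of all genes with a listed H2A.Z region, and 6 of 8 for H2A.Zac, beside 23.6%. In the TSS windows of these 8 genes, CDC7 alone gained H2A.Z (background 22.3%) and TOPBP1 alone gained H2A.Zac (57.3%). GINS4 alone lost a mark there, both H2A.Z (10.5%) and H2A.Zac (26.0%). CDC7, the catalytic subunit of the firing kinase, had a gained H2A.Z region of ratio 6.38 that started over exon 2, 877 bp from the TSS, and unchanged H2A.Zac across the whole window. TOPBP1, a scaffold of the firing complex, gained H2A.Zac at 4.28 upstream of the TSS. GINS4, a subunit of the GINS tetramer, lost H2A.Z at chr8:41528089-41528769 with a ratio of 5.49, and lost H2A.Zac at chr8:41528279-41528944, which lies 317 to 982 bp upstream of the TSS, with a ratio of 14.2. This was the highest ratio of any lost region in the TSS windows, and the GINS4 TSS itself was covered by unchanged regions of 0.78 for H2A.Z and 0.64 for H2A.Zac. In their TSS windows, DBF4, CDC45, GINS1, GINS2 and GINS3 had unchanged regions only, and those of GINS2, at 0.16 to 0.23, were among the lowest.

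In the TSS windows of the 5 primase and polymerase genes, POLA2, PRIM1 and PRIM2 gained H2A.Z (background 22.3%). POLA2 and POLE gained H2A.Zac (57.3%), and PRIM2 lost it (26.0%). POLA2, the accessory subunit of polymerase alpha, had a pair of gained regions of each mark that bracketed the TSS. Its H2A.Z ratios were 4.93 at chr11:65261282-65261653 and 4.81 at chr11:65262667-65262965, and its H2A.Zac ratios were 4.99 at chr11:65261186-65261703 and 5.41 at chr11:65262204-65262932. PRIM1 and PRIM2 encode the catalytic and the regulatory subunit of primase. PRIM1 gained H2A.Z at 5.18 over exon 2 and at 3.76 over exon 1 under unchanged H2A.Zac. The region over exon 1 lay within an H2A.Z region listed as unchanged at 0.97. PRIM2 gained H2A.Z over its TSS at chr6:57317596-57317855 with a ratio of 3.93 and lost H2A.Zac upstream, at chr6:57316419-57317055, with a ratio of 5.66. The gained H2A.Z region of PRIM2 lay within an H2A.Z region listed as unchanged at 0.89. POLE, the leading-strand polymerase, gained H2A.Zac at 4.10 within its first intron, and POLD1, the catalytic subunit of polymerase delta, was unchanged for both marks.

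PCNA, the sliding clamp, and RFC2, of the clamp loader, were the only genes among the 41 in which all H2A.Z regions of the TSS window were gained. Unchanged H2A.Z was listed in the windows of the other 39, and in those of 11943 of the 12457 protein-coding genes with a listed H2A.Z region. PCNA gained H2A.Z on both sides of the TSS, at 5.81 upstream (chr20:5120226-5120777) and at 4.34 over exon 1 (chr20:5119521-5119930), and together these covered 962 bp of the window. Across the same stretch its H2A.Zac was 1 unchanged region of 1680 bp with a ratio of 1.14. RFC2 gained H2A.Z at 5.49 upstream (chr7:74254739-74255503) and at 6.15 in its first intron (chr7:74253896-74254166), and H2A.Zac at 4.88 upstream (chr7:74254532-74255156). RFC3 gained H2A.Z at 3.87 at chr13:33818611-33819021, downstream of the TSS, and H2A.Zac at 6.0 at chr13:33817612-33818009, upstream of it. RFC1, the large subunit of the loader, gained H2A.Zac alone at 4.44, RFC4 lost H2A.Zac at 3.58, and RFC5 was unchanged.

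FEN1, which removes the flaps of Okazaki fragments, and LIG1, which seals them, gained both marks. LIG1 gained H2A.Zac at chr19:48169064-48169838, 506 to 1280 bp inside the gene and intronic, with a ratio of 14.8, and H2A.Z at chr19:48169079-48169608 within it, with a ratio of 6.60. Over the LIG1 TSS and upstream of it both marks were unchanged, at 0.36 and 0.44. FEN1 gained H2A.Z upstream at chr11:61792269-61792576 with a ratio of 3.15, the lowest of the gained H2A.Z ratios, and H2A.Zac downstream at chr11:61793047-61793489 with a ratio of 5.13. The gained H2A.Z region of FEN1 was near the cutoff of 3 and lay within an H2A.Z region listed as unchanged at 1.13. In the genes of the RPA complex, RPA1 gained H2A.Z over the TSS and exon 1 at chr17:1829968-1830652 at 5.23 and H2A.Zac in its first intron at chr17:1830399-1830712 at 8.85. RPA2 gained H2A.Zac alone, at 6.29 and 758 bp into the gene, and lost H2A.Zac at 7.07 just outside the window, 1218 to 1513 bp upstream.

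**Figure D4:**
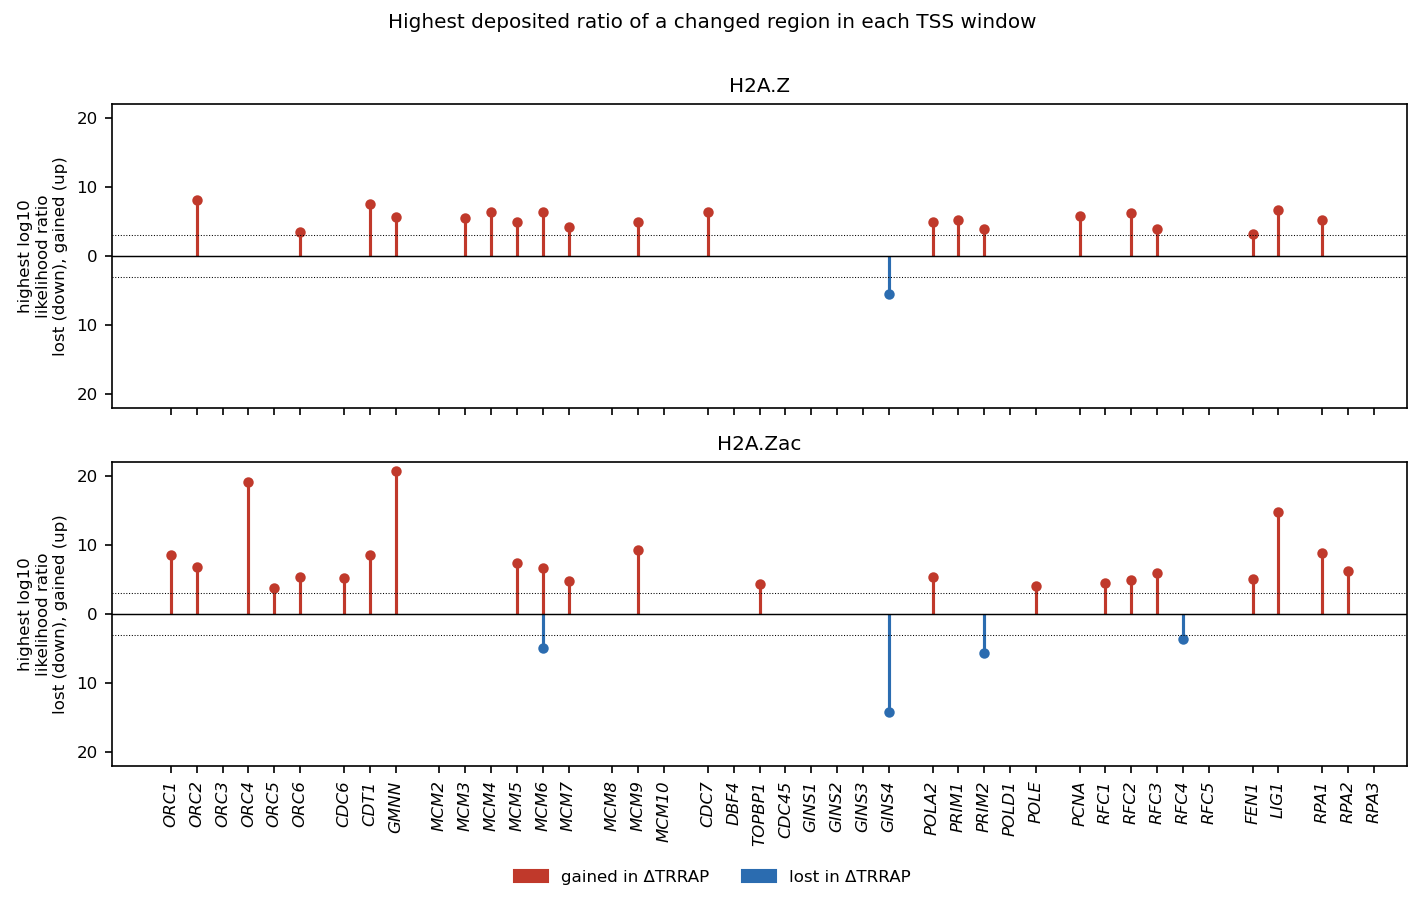
Highest log10 likelihood ratio (the authors' deposited value, linear axis, up for gained in red and down for lost in blue) of a changed H2A.Z (top) or H2A.Zac (bottom) region in the TSS window of each gene. Dotted lines mark the authors' cutoff of 3. All H2A.Z ratios stay under 10, and GMNN at 20.7, ORC4 at 19.2, LIG1 at 14.8 and the lost GINS4 region at 14.2 stand above the other H2A.Zac ratios.

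Over the gene bodies plus 2 kb, all 42 genes had listed regions. Gained H2A.Z was found in 21 of them (50%, 35.5 to 64.5%, beside a background of 29.1%) and lost H2A.Z in GINS4 alone (2.38%, beside 23.5%). Gained H2A.Zac was found in 27 (64.3%, 49.2 to 77.0%, beside 65.9%) and lost H2A.Zac in 9 (21.4%, 11.7 to 35.9%, beside 48.0%). With 10 kb to each side, lost H2A.Z was found in 5 genes (11.9%, beside 33.4%) and lost H2A.Zac in 15 (35.7%, beside 59.5%). Long genes have more room for regions, and gene length was not matched here. The highest ratio of the whole set lay far from a TSS. It was a gained H2A.Zac region of ratio 39.2 at chr11:65301504-65302712, 39542 to 40750 bp downstream of the POLA2 TSS, past the end of its canonical transcript but within longer annotated ones, and 12154 bp from that of CDC42EP2, with no H2A.Z region listed beside it. In MCM9, H2A.Zac was gained at 13.9 over exon 13, at chr6:118824982-118826749, 108410 bp from the TSS, again without a listed H2A.Z region. Further gained H2A.Zac regions in the MCM9 body, at 5.79 and 5.23, lay within 1 kb of the TSS of ASF1A, a histone chaperone gene. Upstream of PRIM2, at chr6:57313494-57314076, H2A.Zac was lost at 12.8, so that PRIM2 had lost regions on 2 stretches before its canonical TSS. This region reached the window of another annotated PRIM2 TSS. GINS3 lost H2A.Zac in 4 regions 55138 to 73166 bp upstream of its canonical TSS, within its annotated span, with ratios of 3.55 to 11.3.

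**Figure D5:**
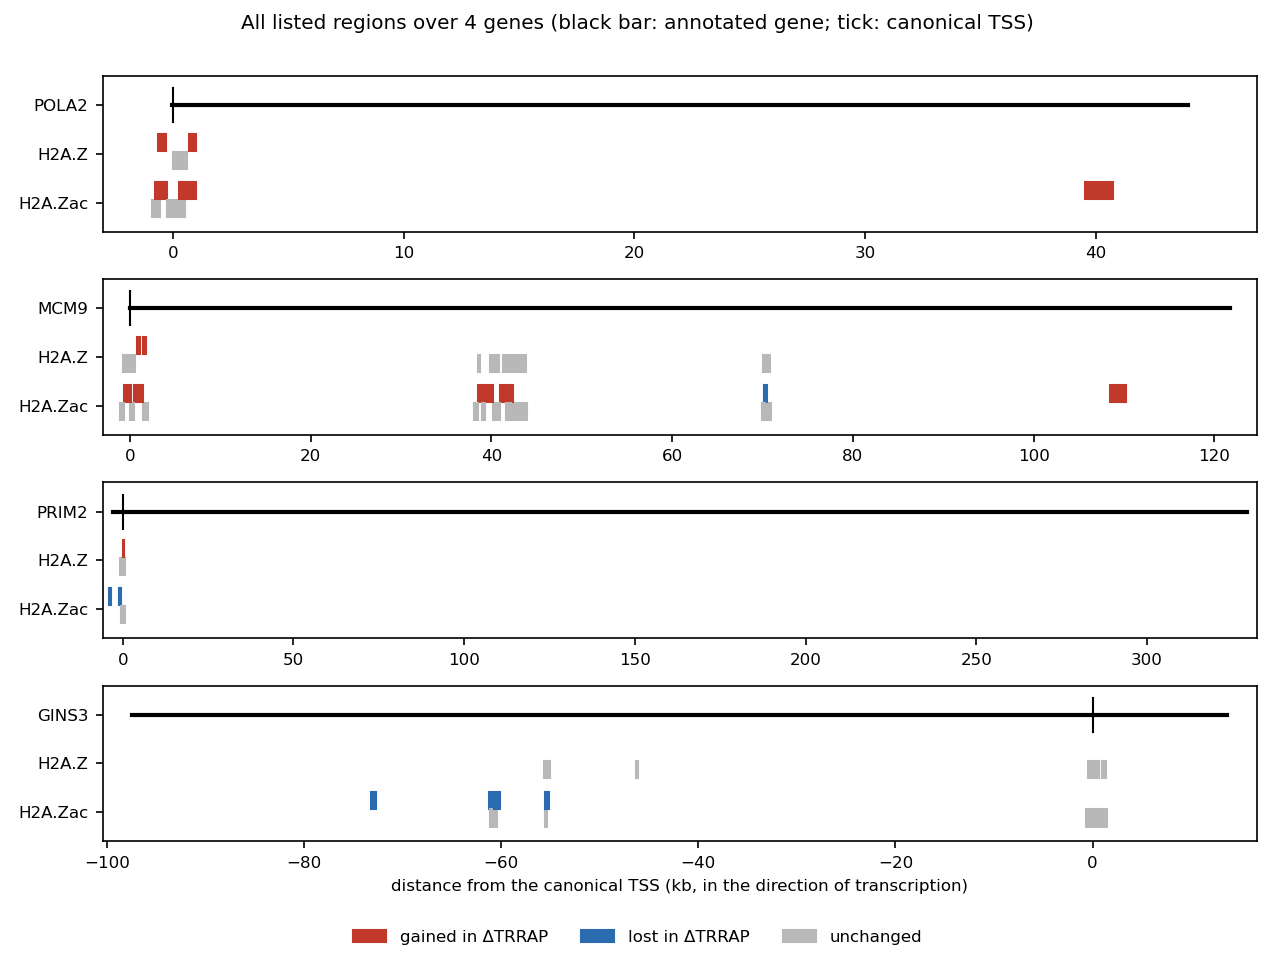
All listed H2A.Z and H2A.Zac regions over POLA2, MCM9, PRIM2 and GINS3, by distance from the canonical TSS in kb in the direction of transcription, each gene on its own scale. The black bar is the annotated gene, the tick the canonical TSS, and regions are red where gained, blue where lost and grey where unchanged. The gained POLA2 region of ratio 39.2 stands alone 39542 bp downstream, and the GINS3 losses lie upstream of its tick.

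Other loci overlapped promoters of neighboring genes. RPA3 had no region at its canonical TSS, but TSSs of other RPA3 transcripts lie beside the UMAD1 promoter, where H2A.Z was gained at 5.29 (chr7:7639268-7640269) and 5.32 (chr7:7641030-7641398), and H2A.Zac was gained at 4.39 and lost at 4.0 and 3.91. In the PCNA span, H2A.Zac was gained at 4.64 and 5.07 beside TMEM230 and at 3.85 beside CDS2. GINS1 had a gained H2A.Zac region of 6.39 beside ABHD12, MCM4 one of 5.34 beside PRKDC and CDC45 one of 6.37 beside UFD1. These regions cannot be assigned to either gene of a pair. When the TSSs of all annotated transcripts were used, RPA3 turned from no region to gained H2A.Z and to gained and lost H2A.Zac, PCNA, GINS1, CDC45 and MCM4 turned from unchanged to gained H2A.Zac, and CDT1 from gained to gained and lost H2A.Zac. Leaving out genes with the TSS of another protein-coding gene in the window, gained H2A.Z was listed at 13 of 27 genes (48.1%), beside 21.0% of the background reduced in the same way, and gained H2A.Zac at 13 of 27 (48.1%), beside 54.2%.

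Some of the genes lie in stretches of the genome where the direction was strongly one-sided, taken here, after the values were seen, as 5-Mb windows in which at most 15% or at least 80% of the H2A.Z changes were gains. Over the genome, 41.6% of the H2A.Z changes and 50.4% of the H2A.Zac changes were gains. LIG1, POLD1, RFC5, DBF4 and GINS1 lie in windows of few gains, and the windows of the genes in neither class ranged from 18.8% (RPA2) to 64.5% (CDC7). On chromosome 19 from 40 to 59 Mb, which holds LIG1 and POLD1, gains made up 28 of the 563 H2A.Z changes (4.97%) and 275 of the 968 H2A.Zac changes (28.4%). In the 5-Mb window of chromosome 12 that holds RFC5, 1 of 59 H2A.Z changes and 12 of 83 H2A.Zac changes were gains. For DBF4 the counts were 2 of 15 and 7 of 43, and for GINS1 they were 1 of 15 and 12 of 35. LIG1 gained both marks within such a stretch, where 11 of the 222 H2A.Z changes and 84 of the 351 H2A.Zac changes between 45 and 50 Mb were gains. ORC2, PRIM2 and RFC1 lie in windows of many gains. The 5-Mb window of ORC2, the gene with the highest gained H2A.Z ratio, held 13 gains among 15 H2A.Z changes (86.7%) and 44 among 68 H2A.Zac changes (64.7%), that of PRIM2 held 11 among 12 (91.7%) and 15 among 25, and that of RFC1 held 36 among 45 and 61 among 78 (78.2%), the genes' own regions included. Whether these surroundings bear on the genes' own changes was not tested. Without chromosomes 19 and 20, gained H2A.Z was listed at 18 of 36 genes (50%), beside 23.8% of the background.

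A list of 40 other replication genes, covering further polymerase subunits, firing and fork-protection factors, alternative clamp loaders, RNase H2, histone chaperones and nucleotide synthesis, gave a share near that of the 42 genes for gained H2A.Z. Of the 39 with a listed H2A.Z region in the TSS window, 17 gained it (43.6%, 29.3 to 59%), beside 48.8% in the main list and 22.3% of all genes. Lost H2A.Z was listed at 3 (7.69%), beside 2.44% in the main list and 10.5% of all genes. Gained H2A.Zac was listed at 23 of 39 (59%, 43.4 to 72.9%), beside 53.7% and 57.3% in the same order. Lost H2A.Zac was listed at 9 (23.1%, 12.6 to 38.3%), beside 9.76% and 26.0%. DTL, which directs CDT1 to degradation, had the highest gained H2A.Z ratio of the list, 11.5, over unchanged H2A.Zac, and RRM1, the large subunit of ribonucleotide reductase, gained H2A.Z at 9.13 and H2A.Zac at 5.97. POLD4, a small subunit of polymerase delta, gained H2A.Zac at 16.0. DNA2, a nuclease of Okazaki fragments, lost both marks, at 8.70 for H2A.Z and 12.3 for H2A.Zac, as did RNASEH2C at 4.61 and 7.31. ATAD5, which unloads PCNA, had H2A.Z regions in both directions, gained at 6.38 and lost at 6.03, and lost H2A.Zac at 11.1.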

How the data were processed

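ChIP-seq reads were aligned by the authors to hg38 with Bowtie2 2.4.5, and MACS2 2.2.7.1 bdgdiff compared the merged replicates of the 2 lines at a cutoff of 3. The authors kept regions with at least 25% of their length in peaks at an IDR of 0.05, and bedtools 2.30.0 and deepTools 3.5.1 are also in the submitters' notes. The deposited score of each region, its only value, is the log10 likelihood ratio of that comparison, and it was used to describe and rank regions.

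The 6 lists were overlapped by at least 1 bp with GENCODE release 44, where the study used release 32. Members and gene lists were chosen with earlier results of these data known. Full values are given for the 3 members with the highest ratio per mark and direction, for members with both marks changed the same way, and for members with both directions of 1 mark. No member lacked listed regions in its locus. Promoters of those with the highest ratios were printed. Overlaps were checked on 500 simulated windows and 4000 regions, with 0 differences from bedtools 2.31.1. Python 3.11.15, pandas 2.3.3 and scipy 1.17.1 were used. The depth is unknown. Other window sizes, ratio cutoffs, region widths and denominators were tried. Input libraries and signal tracks were not analysed here.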

Additional observations from a re-analysis of the deposited data

How the results depend on the processing

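No paired analysis was possible because the lists come from merged replicates and hold no value per replicate, so no replicate could be left out either. A share was counted as moved when it fell outside the Wilson interval of the reported share, a wide interval at these numbers of genes, and of 91 alternative shares 73 stayed inside and 18 moved.

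All 18 followed from a higher ratio cutoff, a longer minimum width or a gene body without flanks, which keep fewer regions by construction. At a ratio of at least 5, gained H2A.Z was listed at 29.3% of genes in the TSS window (beside 11.9% of all genes) and at 31.0% in the locus (17.8%), and gained H2A.Zac at 47.6% in the locus (55.5%). At a ratio of at least 10, both gained and lost H2A.Z fell to 0.0% (0 genes) in the TSS window and in the locus. Over all genes, the gained and lost shares were 1.03 and 0.911% in the TSS window, and 2.51 and 3.49% in the locus. No gained share of changed H2A.Z regions could be computed for the members at this cutoff. Gained H2A.Zac was then at 7.32% in the TSS window (all genes, 8.81%) and 11.9% in the locus (19.4%), and lost H2A.Zac at 2.44% (8.37%) and 7.14% (22.4%). With regions of at least 500 bp, gained H2A.Z was at 27.5% (8.88%) and 29.3% (13.5%), gained H2A.Zac at 34.1% (40.9%) and 42.9% (52.0%), and lost H2A.Zac in the locus at 9.52% (36.8%). Without the 2-kb flanks, lost H2A.Z was at 0.0% (17.8%) and gained H2A.Zac at 47.6% (60.7%).

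For the highest ratio of a changed region per gene and mark, 368 values were sought. Of these, 271 were the same, 9 moved, 3 reversed and 85 had no changed region left. The 85 included 42 at a ratio of at least 10, 15 at one of at least 5 and 17 with regions of at least 500 bp. A maximum that passes a ratio cutoff cannot move by construction. GMNN H2A.Zac fell from 20.7 to 6.98 with regions of at least 500 bp. PRIM2 H2A.Zac went from -5.6572 to -12.8177 (both lost) with the TSSs of all annotated transcripts. MCM6 H2A.Zac turned to -4.924 (lost) with a TSS window of 500 bp and with regions of at least 500 bp, and RPA2 H2A.Zac to -7.0686 with a window of 2 kb. Leaving out shared promoters, requiring both marks and counting all genes were added after seeing the data.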
